A study of Mus musculus with 29 samples.

Results

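The enzymes that write and erase DNA methylation are themselves encoded by genes that carry it, and the DNA methylation (DNAm) of 8 such genes was followed here window by window in mouse lung. The genes were Dnmt1, Uhrf1, Dnmt3a, Dnmt3b, Dnmt3l, Tet1, Tet2 and Tet3, and their members were all windows of the gene table that named one of them, which gave 151 of 260686 windows. Dnmt3a held 34 of these windows, Tet3 31, Tet1 25, Dnmt1 20, Tet2 17, Uhrf1 9, Dnmt3b 9 and Dnmt3l 6. Within the table, windows were taken by gene name, whatever their values. Every one of the 151 windows had a value in all 29 libraries and passed the filter of at least 3 values a group.

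Whole-genome methyl-sequencing had been performed on lung homogenates of 13-week-old Balb/c offspring, described as female, each of which had gone through methacholine lung function testing. Sham offspring (n = 7) came from dams given saline by the nose before mating, through gestation and until weaning, and received nebulised saline. PM offspring (n = 7) also received saline, but their dams had been given fine airborne particulate matter (PM2.5) over the same period. Sham-OVA (n = 7) and PM-OVA (n = 8) offspring of these kinds of dam were sensitised to ovalbumin (OVA) with an aluminium adjuvant and challenged with aerosolised OVA, which brings on allergic airway disease (AAD). The design asks how the allergen changes DNAm in each kind of offspring, and whether the maternal particles change DNAm with or without it. The dam of each library was not given in the labels, so littermates could not be set apart, and p-values measure the spread between these animals.

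DNMT1 copies methylation onto the new strand after replication, and UHRF1 brings it to hemimethylated CpGs. DNMT3A and DNMT3B methylate unmarked CpGs, and DNMT3L, which has no activity of its own and is best known from germ cells, stimulates them. TET1, TET2 and TET3 oxidise 5-methylcytosine (5mC) to 5-hydroxymethylcytosine and beyond, after which base excision repair can restore an unmethylated cytosine. Enzymatic methyl-sequencing reads 5mC and 5-hydroxymethylcytosine alike, so a percentage below is the sum of both. CpG-rich starts of active genes are usually free of methylation, while gene bodies usually carry much of it.

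CpG content differed strongly between windows with low and high levels, and stretches that show this are printed first, from the GRCm38 genome, on the strand of the gene, 5′ to 3′, with each CpG in capitals. 3 starts give examples of CpG density in the 250 bases upstream of a coding transcript. They are a main start in unmethylated windows, an internal start in a window of intermediate level and a start in a methylated window. Levels are means over whole windows, so that of the printed bases alone is not known. The median of 32851 RefSeq promoters (GRCm38.p6) was 6 CpGs in the same 250 bases.

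Upstream of Dnmt3a-201 (chr12:3806780-3807029, plus strand) there were 37 CpGs, a number that 2.20% of the RefSeq promoters reached. This stretch lies in Dnmt3a windows 2 and 3, in which the group means were between 0 and 1.38%. The stretch upstream of Tet3-202 (chr6:83441676-83441925, minus strand), in Tet3 window 9, had 17 CpGs, a number reached by 23.5%. Upstream of Dnmt3l-201 (chr10:78049592-78049841, plus strand), in Dnmt3l window 2, there were 4, a number reached by 62.2%.
Dnmt3a-201 upstream: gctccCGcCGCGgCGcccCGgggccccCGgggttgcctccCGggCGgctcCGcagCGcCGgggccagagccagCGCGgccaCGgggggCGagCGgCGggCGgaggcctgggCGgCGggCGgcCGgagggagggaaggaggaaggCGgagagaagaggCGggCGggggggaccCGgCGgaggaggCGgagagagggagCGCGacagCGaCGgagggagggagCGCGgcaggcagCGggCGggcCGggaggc
Tet3-202 upstream: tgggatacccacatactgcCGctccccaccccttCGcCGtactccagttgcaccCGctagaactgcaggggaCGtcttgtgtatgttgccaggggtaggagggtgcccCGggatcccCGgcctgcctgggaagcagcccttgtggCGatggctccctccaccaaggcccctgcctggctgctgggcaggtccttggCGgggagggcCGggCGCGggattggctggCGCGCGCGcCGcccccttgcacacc
Dnmt3l-201 upstream: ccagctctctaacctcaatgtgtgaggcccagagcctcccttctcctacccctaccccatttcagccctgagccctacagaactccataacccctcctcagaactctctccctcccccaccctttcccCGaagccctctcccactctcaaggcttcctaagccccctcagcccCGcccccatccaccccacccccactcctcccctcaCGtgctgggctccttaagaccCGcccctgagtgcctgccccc

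The next pair of stretches shows where the largest difference lay. The first spans the border of Dnmt3a windows 6 and 7 (chr12:3808173-3808472, plus strand, 150 bases on each side), with 22 CpGs in 300 bases, most of them on the window 6 side. The other is the CpG-densest run of 300 bases within Dnmt3a window 7 that is free of coding-transcript exons (chr12:3811147-3811446, plus strand), with 9 CpGs. The same kind of run is given for Tet3 window 10 (chr6:83440881-83441180, minus strand, 14 CpGs) and for Tet1 window 6 (chr10:62886117-62886416, minus strand, 19 CpGs), TET gene windows with low levels that were called higher with OVA challenge in both kinds of offspring, for Tet1 window 6 close to the threshold in PM offspring.
Dnmt3a windows 6 and 7 border: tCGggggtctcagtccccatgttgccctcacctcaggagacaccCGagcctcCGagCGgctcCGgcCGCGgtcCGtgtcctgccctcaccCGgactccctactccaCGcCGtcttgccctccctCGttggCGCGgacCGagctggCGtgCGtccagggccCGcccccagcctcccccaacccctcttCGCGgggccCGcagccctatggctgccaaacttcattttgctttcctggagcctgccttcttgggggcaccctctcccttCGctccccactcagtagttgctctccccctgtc
Dnmt3a window 7 densest run: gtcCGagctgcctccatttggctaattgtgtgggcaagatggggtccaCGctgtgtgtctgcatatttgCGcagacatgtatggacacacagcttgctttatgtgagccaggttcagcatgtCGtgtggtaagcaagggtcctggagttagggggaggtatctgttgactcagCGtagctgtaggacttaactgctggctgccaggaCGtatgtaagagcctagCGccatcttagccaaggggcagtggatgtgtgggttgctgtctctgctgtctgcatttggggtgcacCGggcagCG
Tet3 window 10 densest run: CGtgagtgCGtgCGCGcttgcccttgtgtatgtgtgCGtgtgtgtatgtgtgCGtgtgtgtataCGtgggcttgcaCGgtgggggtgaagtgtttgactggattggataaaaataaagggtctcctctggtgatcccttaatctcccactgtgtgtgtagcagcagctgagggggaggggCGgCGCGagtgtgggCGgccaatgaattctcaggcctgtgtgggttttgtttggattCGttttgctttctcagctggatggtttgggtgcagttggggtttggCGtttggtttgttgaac
Tet1 window 6 densest run: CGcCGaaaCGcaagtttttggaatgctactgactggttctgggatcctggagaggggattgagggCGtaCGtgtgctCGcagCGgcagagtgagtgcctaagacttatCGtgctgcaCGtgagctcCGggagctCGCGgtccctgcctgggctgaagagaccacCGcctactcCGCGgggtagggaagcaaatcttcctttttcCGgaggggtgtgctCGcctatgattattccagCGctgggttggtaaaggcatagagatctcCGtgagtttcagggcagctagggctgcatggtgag

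Windows are numbered from the 5′ end of each gene in the direction of transcription, and a level is the %DNAm of a window in 1 library or the mean of a group. Each window was drawn by the authors to hold a fixed number of CpG cytosines (median 100 over both strands), so CpG-rich windows are short and CpG-poor ones long. The member windows had a median of 1.34 CpGs per 100 bases and a median length of 3733 bases, against 1.05 and 4788 over all windows. A difference is given in percentage points between group means and its adjusted p comes from limma's moderated test on the log2 of methylated over unmethylated percentage, adjusted over all 259167 tested windows. A differentially methylated region (DMR) also needed a difference of at least 10 points. The study's methods give the coverage of the libraries, but the number of calls behind each window is unknown, because the table holds percentages alone.

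A single library stood apart from its group. Sham replicate 1 had values in 1224 of 1230 Y chromosome windows, where the other 28 libraries had values in 29 to 46, and 5.95% of its X chromosome windows were under 10%, against 0.268 to 0.488% in the others. None of the 8 genes is on a sex chromosome. The member counts are also given without this library. Homogenised lung mixes cell types, and a change in the share of a cell type and a change within cells cannot be told apart. Over all windows, 13.3% rose and 22.3% fell with OVA in Sham offspring, and 9.26% rose and 34.8% fell in PM offspring. Among 27 leucocyte genes (210 windows), 65 windows fell and 44 rose with OVA in Sham offspring and 79 fell and 33 rose in PM offspring, and their mean level was 66.0 to 67.1% over Sham libraries, 64.6 to 66.0% over Sham-OVA, 66.5 to 67.3% over PM and 64.7 to 65.4% over PM-OVA. Among 29 genes of resident lung cells (228 windows), 81 rose and 24 fell in Sham offspring and 64 rose and 37 fell in PM offspring. Among 7 genes of other organs (32 windows) the rises and falls numbered 4 and 7, and 1 and 18. The part of these markers in the member results was not tested. Marker genes did not separate lung from other organs by their lowest window, since Sftpc, the surfactant protein C gene of alveolar type II cells, reached 45.4% and Alb of the liver 74.7%, but Sftpa1 stayed at 73.4% and Pdx1 of the pancreas reached 4.80%.

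In the 6 genes other than Dnmt3b and Dnmt3l the level fell to near 0 over a CpG-rich start and was higher elsewhere, and this shape was shared by the 4 groups. The median Sham level over the windows of a gene ran from 64.5% in Uhrf1, 68.6% in Dnmt3a and 71.3% in Tet3 to 87.2% in Tet2 and 91.8% in Dnmt1. In the Sham group, 16 member windows were under 5% (as they were in every other group), 116 were over 60% and 72 were over 80%. All 15 member windows with at least 5 CpGs per 100 bases were among the 16, and the remaining one was Dnmt1 window 4, with 4.56 CpGs per 100 bases. No window of Dnmt3b or Dnmt3l was under 60% in any group. The plots of level along each gene and of CpG density show how little the groups differed beside these steps.

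**Figure D1:**
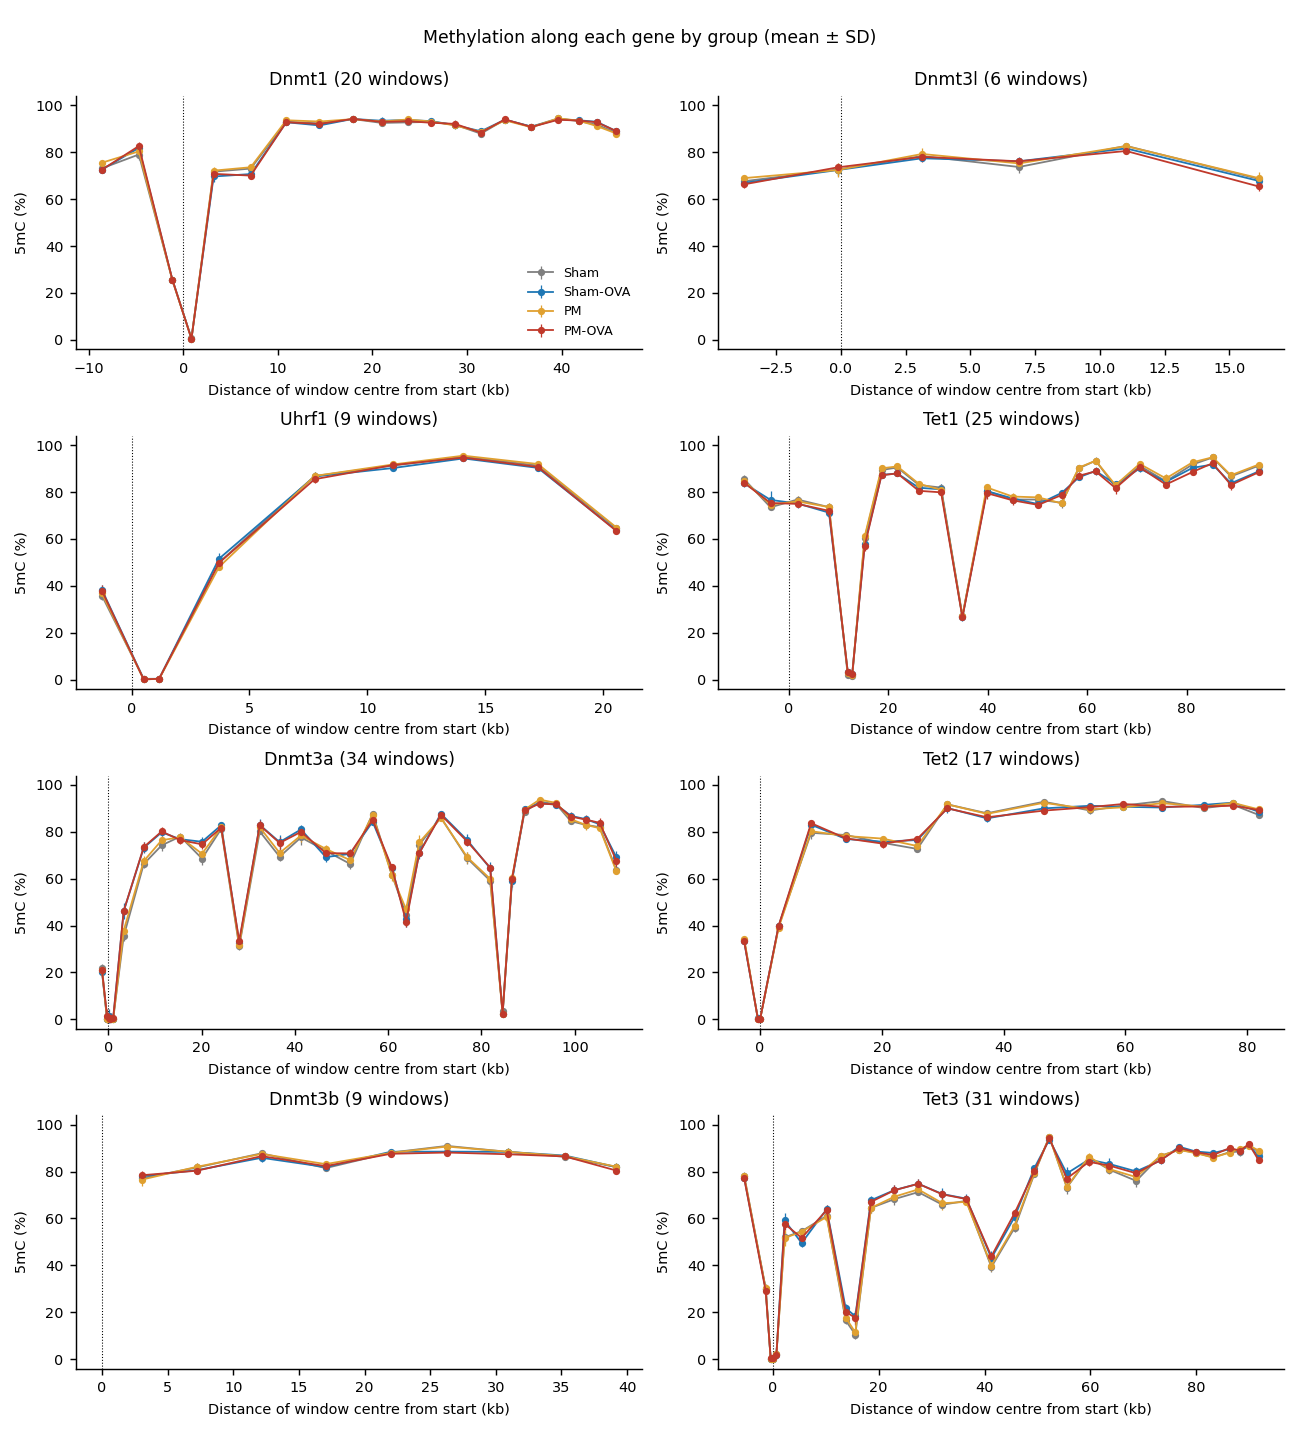
Methylation of each window (5mC in %, mean ± SD over the libraries of a group) against the distance of its centre from the start of the transcript with the longest coding sequence (dotted line, kb in the direction of transcription), for the 8 genes and 4 groups. All groups drop to near 0 at CpG-rich starts, which for Tet1 lies about 12 kb inside that transcript. The lines part only in stretches such as Dnmt3a window 7, at 3.32 kb.

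**Figure D2:**
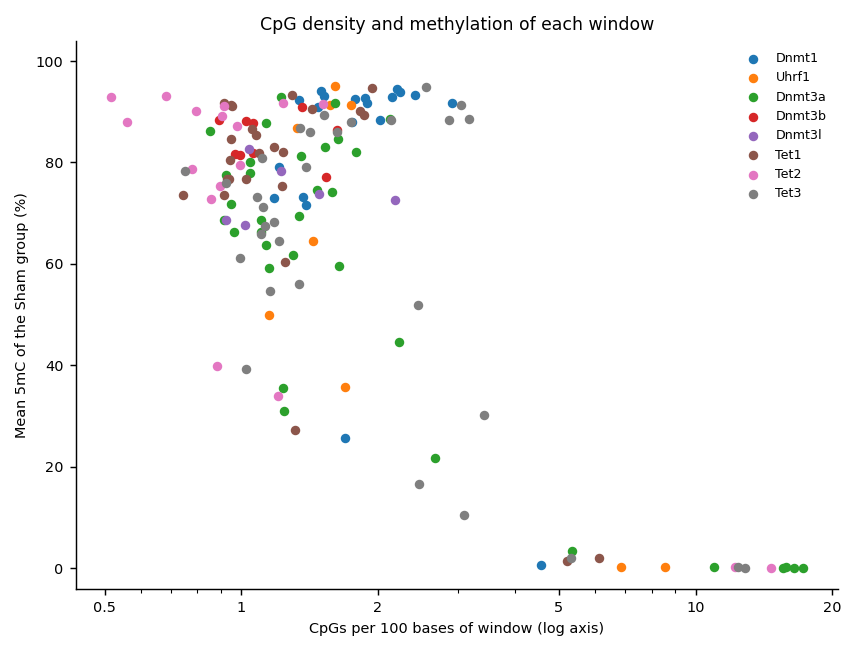
Mean 5mC of the Sham group (%) against CpGs per 100 bases (log axis) for the 151 windows, coloured by gene. The 15 windows at or above 5 CpGs per 100 bases all sit under 5%, and below that density levels run from under 1% to 95.0%.

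With OVA challenge, more windows of Dnmt3a and Tet3 rose than fell and more windows of Tet1 fell than rose, in Sham and in PM offspring, while 71 of the 151 windows were called in neither. In Sham offspring 39 member windows rose and 22 fell at an adjusted p under 0.05, against 13.3% of all tested windows that rose and 22.3% that fell. In PM offspring 30 rose and 35 fell, against 9.26% and 34.8%. Windows called with the same sign in both arms numbered 27 that rose (7.57% of all windows did) and 19 that fell (19.7%), and 0 were called with opposite signs. The sign was shared by 122 of the 151 windows, and the differences in the arms, which share no library, had a Pearson's r of 0.907 over the member windows and of 0.879 over all windows, as a description of windows that are not independent of each other. The median member difference was 0.0387 points in Sham offspring and -0.0784 points in PM offspring, beside -0.414 and -1.03 points over all windows. Only 1 member window was a DMR, in Sham offspring, where 0.775% of all windows were, and 0 were DMRs in PM offspring, where 0.584% were. Without Sham replicate 1, 36 rose and 20 fell in Sham offspring, 28 rose and 36 fell in PM offspring, and the DMR counts stayed at 1 and 0. When each library was centred on its median deviation, 48 rose and 17 fell in Sham offspring and 46 rose and 16 fell in PM offspring, while over all windows 47406 rose and 46061 fell and 49017 rose and 48372 fell. The split between rises and falls in PM offspring depended on this centring, which took up a median difference of -1.03 points over all windows.

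**Figure D3:**
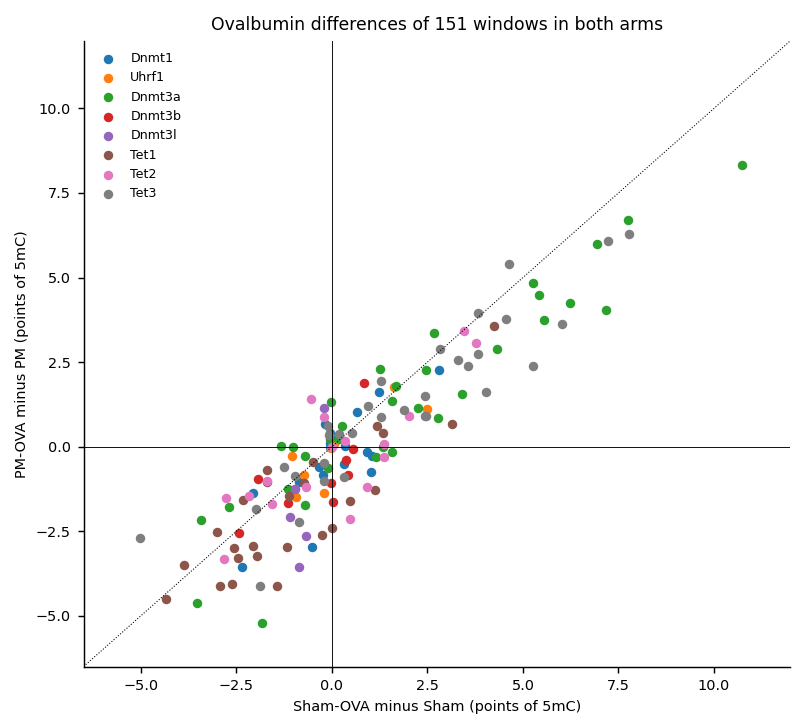
Difference of group means with OVA in PM offspring (points of 5mC, y axis) against that in Sham offspring (x axis) for the 151 windows, coloured by gene, with the line of equality dotted. Most windows lie in the lower left and upper right parts (122 of 151), with Dnmt3a window 7 farthest up at 10.7 and 8.33 points.

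Dnmt3a held the largest difference of any member window. Window 7 (chr12:3808323-3812379), 4057 bases that lie wholly in introns, begins where the unmethylated windows 2 to 6 around the main start end, as the border stretch above shows. Its level had a median of 35.7% (31.9 to 38.5) in Sham libraries, 47.4% (41.2 to 50.1) in Sham-OVA, 38.4% (35.2 to 40.8) in PM and 46.2% (43.6 to 48.7) in PM-OVA, where brackets hold the lowest and highest library. All 15 challenged libraries were above all 14 unchallenged ones. Challenged and unchallenged libraries lay apart, in either direction, in 3.26% of windows complete in all libraries and in no other member window. Group means rose from 35.5% ± 2.13 (SD, n = 7) to 46.2% ± 3.48 (n = 7) in Sham offspring, by 10.7 points (adjusted p = 3.28e-07), and this was the only member DMR. In PM offspring the rise from 37.9% ± 2.03 (n = 7) to 46.2% ± 1.72 (n = 8) was 8.33 points (adjusted p = 5.44e-06) and stayed under the minimum for a DMR. The difference between these rises was -2.40 points (PM minus Sham, adjusted p of the interaction = 0.766), so the arms were not shown to differ. Leaving out each library in turn kept the rise between 10.1 and 11.6 points in Sham offspring.

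In all, 14 of the 34 Dnmt3a windows rose and 3 fell in Sham offspring, beside 13.3 and 22.3% of all windows. In PM offspring 12 rose and 4 fell, beside 9.26 and 34.8%. After centring, 17 rose and 2 fell in Sham and 15 rose and 1 fell in PM offspring. The 11 that rose in both were windows 7, 8, 9, 11, 15, 18, 20, 24, 25, 32 and 34, with rises of 2.46 to 10.7 points in Sham and 2.25 to 8.33 points in PM offspring from Sham levels of 35.5 to 83.0%. Window 24 (chr12:3881264-3886719), which holds the start of the coding transcript Dnmt3a-213, rose from a median of 68.3% (65.2 to 72.7) to 76.5% (72.6 to 80.1) in Sham offspring and from 69.2% (66.3 to 73.5) to 75.9% (73.4 to 77.5) in PM offspring. The highest unchallenged and the lowest challenged libraries overlapped by little, and the means rose by 7.74 points in Sham offspring (adjusted p = 1.04e-05) and 6.70 points in PM offspring (adjusted p = 3.49e-05). Windows 18 and 20, each with the start of a further coding transcript, rose by 4.32 and 2.68 points in Sham and 2.90 and 3.35 points in PM offspring (largest adjusted p = 0.0429, for window 20 in Sham offspring). That call was lost in 9 of 29 fits that left out a library, among them the fit without Sham replicate 1 (adjusted p = 0.0674), and that of window 18 in PM offspring in 2 (adjusted p up to 0.0766). Window 18 is shared with the antisense gene Dnmt3aos, so its value belongs to both. Windows 19 and 22 fell in both arms, although window 19 lost its call in PM offspring after centring (adjusted p = 0.0905), and window 22 (chr12:3871998-3875400), which holds coding exon, went from 74.5% ± 1.34 to 71.0% ± 2.49 and from 75.5% ± 2.96 to 70.9% ± 1.59 (adjusted p = 0.0189 and 0.00115), with an adjusted p of 0.0556 in Sham offspring without Sham-OVA replicate 3. Rises and falls lay side by side within the gene.

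The CpG-rich starts of Dnmt3a were not called in either arm. Window 3 (chr12:3806956-3807245), with the start of the full-length transcript Dnmt3a-201, was at 0 in all 7 Sham libraries and had a median of 0 in every other group, with a highest library of 7.96% (Sham-OVA replicate 6). Window 26 (chr12:3891070-3892041) holds the start of Dnmt3a-203, from which the shorter protein form is made, and had 5.35 CpGs per 100 bases. Its group means lay between 2.39 and 3.42%, with adjusted p = 0.221 and 0.906 for OVA in Sham and PM offspring. Window 25, just upstream of this start, rose in both arms, from 59.2 to 64.4% and from 59.9 to 64.8%, whereas window 27, just downstream, differed by -0.712 and -0.284 points (adjusted p = 0.643 and 0.839). Of the other windows with a coding start, window 31 rose by 2.26 points in Sham offspring (adjusted p = 0.0186) and differed by 1.14 points in PM offspring (adjusted p = 0.17, and 0.021 after centring), and the test of the difference between the arms gave an adjusted p of 0.835. Windows 1 and 28 passed in neither arm, at 20.4 to 21.7% and 88.5 to 89.6%.

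The windows of Dnmt3b and Dnmt3l that passed the test fell. The start of Dnmt3b lies in a window that the table names for the antisense gene Dnmt3bos, as do 3 windows over Dnmt3b in all, and those windows were not among the members. The 9 Dnmt3b windows were at 76.5 to 91.0% in every group, and 2 fell in Sham and 1 in PM offspring, beside 22.3 and 34.8% of all windows. Falls numbered 1 in Sham offspring without any one of Sham replicates 2 and 7 and Sham-OVA replicates 3, 5 and 6, and in PM offspring 3 without PM replicate 6 and 2 without Sham-OVA replicate 4 or PM-OVA replicate 3. After centring, window 1 rose in PM offspring by 2.88 points (adjusted p = 0.0127). Window 6 (chr2:153673891-153677575), which holds 770 bases of coding exon, fell in both, from 91.0% ± 0.562 to 88.5% ± 1.5 (adjusted p = 0.00208) and from 90.7% ± 1.19 to 88.1% ± 1.14 (adjusted p = 0.000741). Its libraries overlapped in both arms in part, with Sham at 90.7% (90.2 to 91.7) and Sham-OVA at 88.5% (85.7 to 90.3). The Dnmt3l windows that hold starts were methylated, which is usual for a germline gene in somatic tissue. Window 2, with the Dnmt3l-201 start printed above, had 72.8% (68.4 to 75.6) in Sham and 73.7% (71.7 to 75.4) in PM-OVA libraries, and window 4, with further starts, had group means of 73.7 to 76.1%. Neither passed the test for OVA, with adjusted p = 0.907 and 0.481 for window 2 and 0.0501 and 0.431 for window 4, in Sham and PM offspring. Window 4 lay at the threshold in Sham offspring, where it passed in 7 of 29 fits that left out a library, and after centring it passed in both arms, with rises of 2.82 points (adjusted p = 0.0115) and 1.89 points (adjusted p = 0.0452). Windows 1, 5 and 6 fell in PM offspring, the last (chr10:78063264-78068677) with a difference of -3.56 points (adjusted p = 0.00858), and these 3 of 6 windows stood beside 34.8% of all windows that fell, while 0 windows passed in Sham offspring, but centring the libraries left 0 falls in PM offspring. The start of the transcript Dnmt3l-205 lies in a window named for the neighbour Aire.

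For the maintenance pair Dnmt1 and Uhrf1, 4 of 20 and 0 of 9 windows passed the test in Sham offspring, against 35.6% of all windows, and 4 and 3 in PM offspring, against 44.1%. The rises of Dnmt1 in Sham offspring numbered 0 without Sham-OVA replicate 2 and 1 without any one of Sham replicates 2, 4 and 7 and Sham-OVA replicates 1 and 6, in place of 3. Dnmt1 has an unmethylated start in window 4 (chr9:20951581-20952676), where the transcripts Dnmt1-203 and Dnmt1-207 begin, at 0.250% (0.00 to 2.86) in Sham and 0.313% (0.0909 to 0.857) in PM-OVA libraries. Window 3, with the start of the main transcript Dnmt1-201, had group means of 25.5 to 25.7% and did not pass (adjusted p = 0.92 and 0.787). A start farther upstream, of Dnmt1-202, lies in window 1, which is shared with S1pr2 and was methylated. Its level was 75.7% (73.5 to 77.0) in PM and 72.4% (70.2 to 74.5) in PM-OVA libraries, a difference of -2.97 points (adjusted p = 0.00139), and 73.5% (70.8 to 75.4) and 73.0% (71.0 to 73.9) in Sham and Sham-OVA (adjusted p = 0.618). The 250 bases upstream of this start had 2 CpGs, a number that 81.2% of RefSeq promoters reached or passed. In both arms, window 2 rose, by 2.81 points in Sham offspring (adjusted p = 0.0302) and 2.26 points in PM offspring (adjusted p = 0.0481), window 6 fell, with differences of -2.34 points in Sham offspring (adjusted p = 0.0493) and -3.56 points in PM offspring (adjusted p = 0.00222), and window 19 rose. The calls of windows 2 and 6 in Sham offspring lay close to the threshold and were lost when single libraries were left out, in 5 and 20 of 29 cases, and so was that of window 2 in PM offspring, in 18. After centring, windows 1 and 6 were no longer called, with an adjusted p of 0.0636 for window 1 in PM offspring and of 0.142 and 0.0599 for window 6 in Sham and PM offspring, and 0 Dnmt1 windows fell. The remaining 15 of 20 Dnmt1 windows passed in neither arm, although windows 3, 15 and 20 rose in PM offspring after centring (adjusted p = 0.0273, 0.0471 and 0.00332). Uhrf1 has 2 CpG-rich windows near its starts, and window 3 (chr17:56304125-56304854), where Uhrf1-202, Uhrf1-204 and Uhrf1-207 begin, had group means of 0.280 to 0.363%. Window 1, which holds the main start (Uhrf1-201) and that of Uhrf1-203, was at 35.8% ± 1.61 in Sham and 38.2% ± 2.10 in Sham-OVA (adjusted p = 0.0566), and it passed in 4 of 29 fits that left out a library and after centring (adjusted p = 0.0346). Towards the 3′ end windows 7, 8 and 9 fell in PM offspring, with differences of -1.5 to -0.834 points, window 8 from 92.0% ± 0.670 to 90.7% ± 0.592 (adjusted p = 0.014), while 1 window fell without any one of PM replicate 1 and PM-OVA replicates 2 and 5, and after centring 0 Uhrf1 windows fell and window 4 rose in PM offspring (2.73 points, adjusted p = 0.00704).

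**Figure D4:**
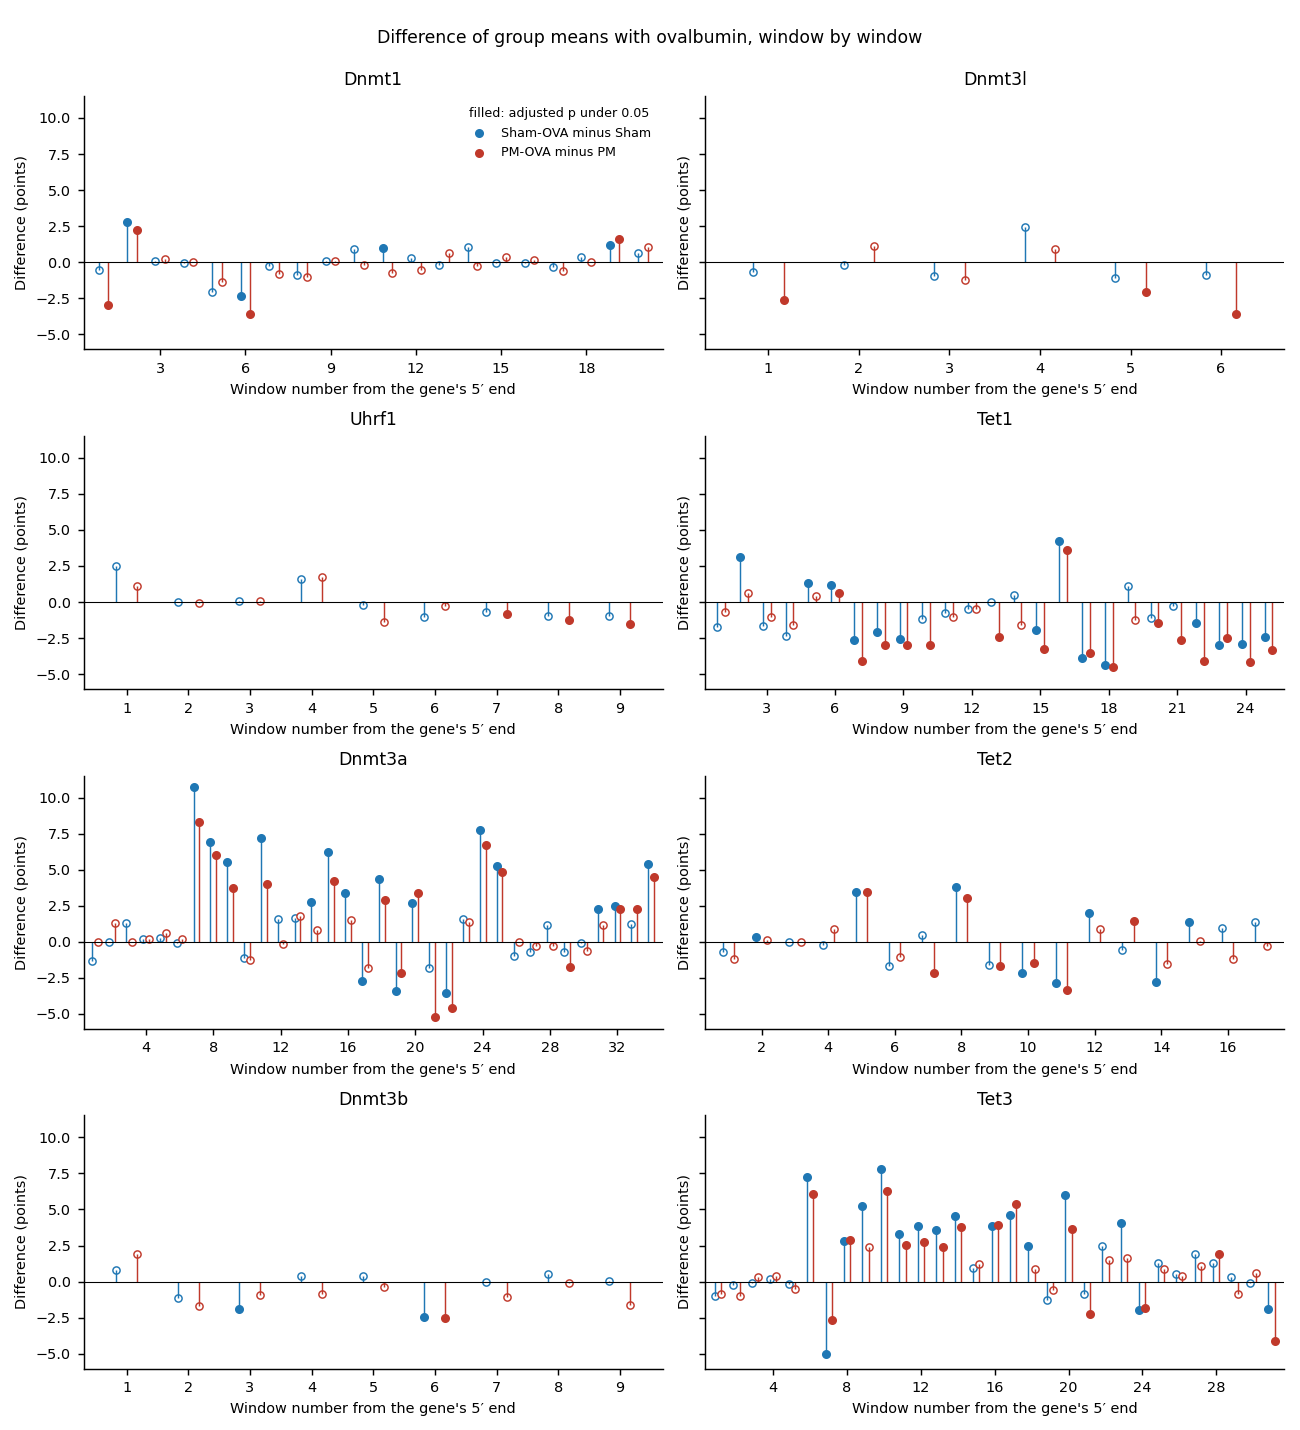
Difference of group means with OVA (points of 5mC) for each window in order from the 5′ end, Sham-OVA minus Sham in blue and PM-OVA minus PM in red, filled where the adjusted p was under 0.05. Dnmt3a and Tet3 show runs of filled points above 0, with 11 and 10 windows higher in both arms, and Tet1 shows 10 windows lower in both.

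Tet1 was the member with the most falls. In Sham offspring 10 of its 25 windows fell and 4 rose, beside 22.3 and 13.3% of all windows. In PM offspring 14 fell and 2 rose, beside 34.8 and 9.26%. Those that fell in both were windows 7, 8, 9, 15, 17, 18, 22, 23, 24 and 25, with differences of -4.35 to -1.43 points in Sham and -4.50 to -2.51 points in PM offspring, from Sham levels of 60.3 to 94.7%. After centring, 7 and 12 windows still fell, as against 4 and 2 that rose, and windows 7, 15 and 22 lost their call in Sham offspring. Rises in PM offspring numbered 1 without any one of PM replicates 1, 3 and 5 and PM-OVA replicates 2, 3, 7 and 8. The largest fall was in window 18 (chr10:62835493-62839368), with 1193 bases of coding exon. Its level was 93.2% (91.4 to 95.6) in Sham, 88.6% (86.4 to 91.4) in Sham-OVA, 93.3% (91.6 to 94.1) in PM and 89.0% (86.4 to 90.1) in PM-OVA libraries. The PM and PM-OVA libraries did not overlap and the Sham and Sham-OVA libraries met at 91.4%, and the means fell, with differences of -4.35 points in Sham offspring (adjusted p = 1.21e-05) and -4.50 points in PM offspring (adjusted p = 4.7e-06). Windows 8 and 23, which hold starts of shorter coding transcripts, had differences of -2.07 and -3.00 points in Sham and -2.95 and -2.51 points in PM offspring (largest adjusted p = 0.00504). A rise stood among the falls in window 16 (chr10:62842217-62846283), which is wholly intronic, from 74.5% (73.3 to 78.6) to 79.6% (78.1 to 81.8) in Sham and from 75.5% (73.9 to 76.0) to 78.3% (77.3 to 81.2) in PM offspring, or 4.23 points in Sham offspring (adjusted p = 0.000157) and 3.58 points in PM offspring (adjusted p = 0.000518).

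The CpG-rich start of Tet1 lies in windows 5 and 6. The transcripts Tet1-207 and Tet1-210 begin in window 5, about 12 kb inside Tet1-206, the transcript with the longest coding sequence. Window 5 (chr10:62886861-62887677) rose in Sham offspring from 2.00% (1.5 to 2.95) to 3.25% (2.17 to 5.12), by 1.33 points (adjusted p = 0.00426). In PM libraries it was at 2.96% (2.12 to 3.85) and in PM-OVA at 3.42% (2.26 to 4.41), a difference of 0.412 points (adjusted p = 0.421), and the test of the difference between the arms gave an adjusted p of 0.682. Window 6 (chr10:62885888-62886849), intronic, rose in both arms, from 1.34% ± 0.558 to 2.52% ± 0.513 (adjusted p = 0.000171) and from 1.84% ± 0.464 to 2.44% ± 0.292 (adjusted p = 0.037). The call in PM offspring was lost in at least 7 of 29 fits that left out a library, on untransformed percentages, with a trended and robust variance and with the replicate block. Windows 5 and 6 were 2 of the 3 windows under 5% that rose with OVA in Sham offspring, the other being Tet2 window 2. All such windows stayed under 5% in every group. Among windows with at least 5 CpGs per 100 bases, 3 of 15 member windows and 2537 of all 15362 rose in Sham offspring. In PM offspring 1 and 2179 rose. Upstream, windows 1, 3 and 4 of Tet1 hold further starts and were methylated, at 83.7 to 85.4%, 74.9 to 76.8% and 71.2 to 73.6%. None of them passed the test for OVA in either arm. In Sham offspring window 1 passed in 3 of 29 fits that left out a library, including that without Sham replicate 1 (-1.98 points, adjusted p = 0.0474), and window 4 in 1. Window 12 in the gene body was at 26.5 to 27.2% in all groups, far under its neighbours, and did not pass (adjusted p = 0.671 and 0.693).

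Tet2, the TET gene most often mutated in blood cells, had calls in both directions. Its start, in windows 2 and 3, was unmethylated, with window 3 (chr3:133544139-133544548) at 0.163% (0.00 to 0.621) in Sham and 0.104% (0.00 to 0.608) in PM-OVA libraries. In Sham offspring 5 of 17 windows rose and 3 fell, beside 13.3 and 22.3% of all windows. In PM offspring 3 rose and 4 fell, beside 9.26 and 34.8%. Centring turned these counts into 6 and 3 in Sham and 4 and 1 in PM offspring. Rises in Sham offspring numbered 2 without Sham replicate 6, and 3 without any one of Sham replicates 1, 3 and 7 and Sham-OVA replicates 1 to 5. Falls numbered 5 in Sham offspring without Sham-OVA replicate 7 and 2 in PM offspring without PM replicate 1. Windows 5 and 8, both intronic, rose in both arms. Window 5 (chr3:133533460-133538481) went from 78.5% (76.4 to 83.3) to 83.7% (79.1 to 84.7) in Sham and from 80.2% (78.3 to 81.8) to 83.5% (82.9 to 85.2) in PM offspring, rising by 3.45 points in Sham offspring (adjusted p = 0.00581) and 3.42 points in PM offspring (adjusted p = 0.00301), with no overlap of libraries in PM offspring. Windows 10 and 11, long and CpG-poor, fell in both, although window 10 lost its call in PM offspring after centring (adjusted p = 0.347), and window 11 (chr3:133492932-133502617) went from 92.8% ± 1.16 to 90.0% ± 1.04 (adjusted p = 0.00067) and from 92.4% ± 1.14 to 89.0% ± 1.59 (adjusted p = 0.000136). Window 14 (chr3:133474634-133481946), where the transcript Tet2-207 starts, fell in Sham offspring from 93.1% (91.6 to 94.7) to 90.6% (89.2 to 91.3) without overlap (adjusted p = 0.000861). In PM offspring its difference was -1.53 points (adjusted p = 0.05002), and without PM-OVA replicate 6, the highest of its group, -1.97 points (adjusted p = 0.00539). This window passed in PM offspring in 8 of 29 fits that left out a library and had an adjusted p of 0.263 after centring. Window 1, upstream, was at 33.2 to 34.4% and passed in neither arm.

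Tet3 rose in 13 of its 31 windows and fell in 3 in Sham offspring, beside 13.3 and 22.3% of all windows. In PM offspring it rose in 11 and fell in 4, beside 9.26 and 34.8%. Without PM-OVA replicate 7 the rises in PM offspring numbered 7, and after centring 16 rose and 3 fell in Sham and 17 rose and 1 fell in PM offspring. Its main start, in window 4 (chr6:83456192-83456580), was unmethylated, with group means of 0.0942 to 0.531%. An internal start, that of Tet3-202, lies in window 9 and borders window 10, and these carried 10.5 to 21.8% methylation at 2.46 and 3.09 CpGs per 100 bases. All 1616 bases of window 10 (chr6:83439988-83441603) are exon of an annotated transcript, 57 of them coding, and its level was 10.1% (8.80 to 14.9) in Sham, 18.9% (15.5 to 22.1) in Sham-OVA, 11.9% (9.66 to 13.1) in PM and 16.6% (13.8 to 21.3) in PM-OVA libraries. Neither arm showed overlap between challenged and unchallenged libraries, although Sham replicate 4, at 14.9%, stood above the other Sham libraries. Means rose from 10.5% ± 2.06 to 18.3% ± 2.28 and from 11.4% ± 1.27 to 17.7% ± 2.99, by 7.78 points in Sham offspring (adjusted p = 2.43e-06) and 6.28 points in PM offspring (adjusted p = 3.14e-05), which on the log2 ratio scale was 0.88 ± 0.12 and 0.69 ± 0.12 (SE), against 0.63 ± 0.07 and 0.48 ± 0.07 for Dnmt3a window 7. Window 9 (chr6:83441605-83443636), shared with B230319C09Rik, rose from 16.6% (14.8 to 18.5) to 22.2% (19.1 to 24.2) in Sham offspring without overlap (adjusted p = 0.000448). In PM offspring it was at 19.1% (14.8 to 20.4) and 20.8% (16.4 to 24.6) (adjusted p = 0.0671, and 0.00841 after centring), and the interaction had an adjusted p of 0.695.

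Around this internal start, windows 6, 8, 11 to 14, 16, 17 and 20 of Tet3 also rose in both arms, which with window 10 makes 10 windows, by 2.83 to 7.78 points in Sham and 2.40 to 6.28 points in PM offspring. Window 7, the intronic window between windows 6 and 8, went the other way. It fell from 54.3% (53.3 to 57.3) to 49.3% (46.6 to 51.8) in Sham offspring without overlap, and from 54.6% (51.5 to 56.0) to 51.5% (49.96 to 54.4) in PM offspring with overlap, with differences of -5.03 points in Sham offspring (adjusted p = 0.000117) and -2.69 points in PM offspring (adjusted p = 0.0159). After centring the difference in PM offspring was -1.71 points (adjusted p = 0.364), so that call was lost. At the 3′ end, window 31 (chr6:83363730-83365473), all of it annotated as untranslated exon, fell without overlap in both arms. Its level was 88.4% (87.7 to 89.4) in Sham, 86.9% (85.7 to 87.4) in Sham-OVA, 88.8% (87.0 to 90.4) in PM and 85.1% (82.5 to 86.5) in PM-OVA libraries, and the means fell, with differences of -1.89 points in Sham offspring (adjusted p = 0.00399) and -4.12 points in PM offspring (adjusted p = 2.8e-07). Across all members, the libraries of an arm did not overlap in 15 windows of Sham offspring and 13 of PM offspring, against 8.59 and 12% of windows complete in all libraries. The 4 windows without overlap in both arms, against 4.25% of the same windows, were Dnmt3a window 7, Tet1 window 17, Tet3 window 10 and Tet3 window 31. Window 1 of Tet3, with the start of Tet3-204, was at 77.2 to 78.3% and passed in neither arm (adjusted p = 0.302 and 0.305).

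**Figure D5:**
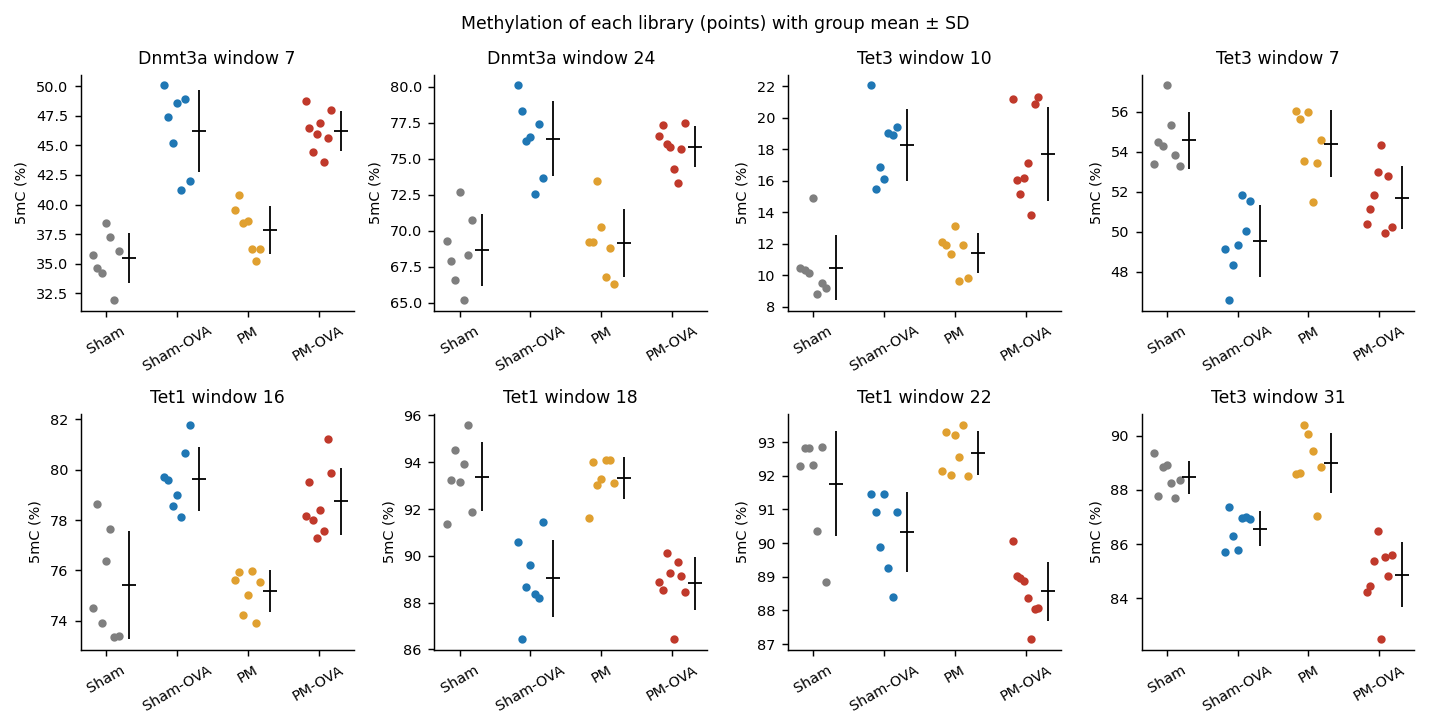
5mC (%) of every library (points) with the group mean ± SD (black) for 8 windows of Dnmt3a, Tet1 and Tet3, with an axis per window that does not start at 0. Challenged and unchallenged libraries separate fully in Dnmt3a window 7, while in Tet1 window 22 the PM and PM-OVA libraries separate (92.0 to 93.5 and 87.1 to 90.1%) and the Sham and Sham-OVA libraries overlap.

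Maternal PM2.5 exposure gave no member call. For PM minus Sham without OVA, limma called 0 member windows at an adjusted p under 0.05, as it called 0% of all windows, and 8 member windows had an unadjusted p under 0.05, against 5.79% of all windows. For PM-OVA minus Sham-OVA the counts were 0 (0% of all) and 8 (5.96% of all), and for the interaction 0 (0% of all) and 9 (7.4% of all). The window with the smallest p without OVA was Tet2 window 17 (chr3:133459924-133465042), at 87.3% (84.9 to 89.3) in Sham and 89.3% (88.9 to 90.5) in PM libraries, with 87.2% ± 1.39 and 89.6% ± 0.642 as means, a difference of 2.38 points (limma's adjusted p = 0.696). With OVA it was Tet3 window 31, described above, with a difference of -1.69 points (PM-OVA minus Sham-OVA, adjusted p = 0.816). For the interaction it was Tet1 window 22 (chr10:62815216-62820671), which holds 337 bases of coding exon. Its level went from 92.3% (88.8 to 92.9) to 90.9% (88.4 to 91.5) in Sham offspring and from 92.6% (92.0 to 93.5) to 88.6% (87.1 to 90.1) in PM offspring, differences of -1.43 points in Sham offspring (adjusted p = 0.0374) and -4.11 points in PM offspring (adjusted p = 1.34e-06). The fall in Sham offspring did not pass in 8 of 29 fits that left out a library. The difference between these falls, -2.68 points (PM minus Sham), had an adjusted p of 0.554. Differences between PM and Sham over the 151 windows ran from -1.91 to 2.42 points without OVA and from -2.37 to 2.17 points with it.

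The other genes of the pathway, given by role, were called in both directions, at shares near or below those of all windows. Over the 5 lists together, 29.4% of windows were called in Sham and 32.3% in PM offspring, against 35.6 and 44.1% of all windows. Of 125 windows of 11 genes that read methylated DNA, 19 rose and 25 fell with OVA in Sham offspring and 15 rose and 38 fell in PM offspring. For 8 partners and regulators of the methyltransferases (79 windows) the counts were 10 and 9, and 6 and 15. For 11 genes of base excision after TET oxidation (57 windows) they were 8 and 10, and 4 and 11. For 8 TET partners and regulators (54 windows) they were 5 and 8, and 5 and 10, and for 11 genes of methyl donor supply (63 windows) 10 and 7, and 7 and 11. Among these 378 windows there were 3 DMRs in Sham and 2 in PM offspring, in 3 genes, beside 0.775 and 0.584% of all windows. Zbtb4, whose protein binds methylated CpGs, had a window that rose from 28.8 to 42.5% in Sham (adjusted p = 3.6e-07) and from 29.5 to 41.5% in PM offspring (adjusted p = 9.34e-07). Zbtb38, of the same family, had a window that fell from 81.6 to 70.9% (adjusted p = 7.98e-09) and from 80.8 to 69.3% (adjusted p = 1.46e-09). Trim28, a corepressor that draws methylation to transposons, had a CpG-rich window that rose from 71.2 to 82.7% in Sham (adjusted p = 3.97e-06), a DMR, and from 72.4 to 80.3% in PM offspring (adjusted p = 0.000235), which was under the minimum difference.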

How the data were processed

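The authors made enzymatic methyl-sequencing libraries with a lambda spike-in, trimmed the reads with Trim Galore and called methylation with DRAGEN against GRCm38. The deposited percent values, drawn in SeqMonk, are the percentage of methylated CpG calls in windows of 100 CpG cytosines that overlap a gene. They hold no read counts, so the depth behind each value and its counting error are unknown, though the authors give the coverage of the libraries, and the authors' own test on counts could not be run. Windows with at least 3 values in each of the 4 groups were kept, which left 259167 of 260686.

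Percentages were turned into the log2 ratio of (percent + 1) to (100 - percent + 1) and fitted over all 29 libraries with limma 3.58.1 in R 4.3.3, with 1 mean a group. P-values were adjusted by the Benjamini-Hochberg method over all tested windows. Calls needed an adjusted p under 0.05, and DMRs also a difference of 10 points. OVA was compared with no OVA in Sham and in PM offspring, PM with Sham without and with OVA, and both OVA effects through the interaction. A simulation of OVA in Sham on 259167 windows, with 50 changed windows a size, recovered 28% of those changed by 3 points, 82% at 5, 98% at 8 and 100% at 12, and called 9 unchanged windows. It changed few windows, none of them near either end of the scale, whereas 35.6% of all windows were called for OVA in Sham offspring. Its shares need not hold for the data.

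The 8 genes and the lists of pathway and marker genes were chosen with earlier results of these data known. Windows named singly hold the start of a coding transcript (GENCODE on GRCm38), have the largest rise or fall called in both OVA comparisons or, for genes with none, the smallest p, are DMRs, or have the smallest p in another comparison. Others named were picked as neighbours or by a count after their values were seen. Of the marker genes, Ms4a1, Tcf21 and Neurod1 had no window. Alternatives were the scale, the offset, centring, missing values, the groups fitted, the variance model, a replicate block, single libraries left out and both thresholds.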

Additional observations from a re-analysis of the deposited data

Results flagged for a closer look

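Among 44 named windows in 4 groups, 14 of 176 groups of libraries (7.955%) held a library whose gap to the nearest other exceeded Dixon's critical value, where chance gives about 1 in 20.

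In windows near 0, the library that stood above its group was Sham replicate 4 in Dnmt1 window 4 (2.857%, others at most 0.4735%), Sham-OVA replicate 6 in Dnmt3a window 3 (7.961%, others at most 1.071%) and in Tet2 window 3 (0.7252%, others at most 0.3064%), and Sham replicate 3 in Dnmt3a window 26 (6.668%, others at most 3.386%). In Tet3 window 4 it was Sham replicate 3 (0.5333%), Sham-OVA replicate 7 (1.585%) and PM replicate 5 (1.065%). The depth behind these values is unknown.

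In windows of intermediate level, Sham replicate 4 stood above its group in Dnmt3a window 1 (25.53%, others 20.32 to 21.76%) and in Tet3 window 10 (14.92%, others 8.796 to 10.48%), and Sham replicate 2 in Tet2 window 1 (34.67%, others at most 33.96%). The rise of Tet3 window 10 in Sham offspring was 7.15 to 8.52 points over the fits that left out a library.

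In methylated windows, PM replicate 3 was the lowest of its group in Uhrf1 window 8 (90.51%) and in Tet1 window 1 (82.17%), PM-OVA replicate 5 was the lowest in Tet1 window 18 (86.42%, others 88.44 to 90.1%) and PM-OVA replicate 6 the highest in Tet2 window 14 (93.79%, others 89.48 to 91.1%). Tet2 window 14 had an adjusted p of 0.05002 for OVA in PM offspring and passed in 8 of 29 fits that left out a library, the one without PM-OVA replicate 6 among them.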

How the results depend on the processing

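At an adjusted p under 1e-06, the threshold of the study's own test, 1 member window stayed called for OVA in Sham offspring and 1 in PM offspring, in place of 61 and 65, against 1.14 and 2.12% of all windows. With a minimum difference of 5 points there were 13 member DMRs in Sham and 7 in PM offspring, in place of 1 and 0, against 5.96 and 5.89% of all windows. The number of called windows stayed within 1.5 times under the other scales, offsets, variance models and choices of windows and groups, at 54 to 65 in Sham and 62 to 66 in PM offspring, though centring moved the split of rises and falls as given above. Leaving out single libraries gave 49 to 68 calls in Sham offspring, lowest without Sham-OVA replicate 6 and highest without Sham-OVA replicate 7, and 57 to 66 in PM offspring, always with 1 and 0 DMRs, and 0 calls for the comparisons of PM with Sham and for the interaction. Of 1595 differences of named windows in these fits, 1499 kept their sign and side of the threshold, 63 lost a call, 33 gained one and 0 changed sign.

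With the replicate number as a block, 59 member windows were called in Sham (37 higher, 22 lower) and 58 in PM offspring (24 higher, 34 lower), and 0 in the other comparisons. Libraries with the same number had correlations of -0.0409 to 0.104 in 42 pairs, 1 of them over 0.1. A library correlated best with its own number in 13 of the 42, and no chance level was computed for this count. The numbers are those of the sample titles, which differ from the library names for some OVA libraries. Whether either numbering pairs the samples was left undecided. The calls behind single windows are not in the table, so differences in the windows near 0 were not set against counting error.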
